A study of Drosophila melanogaster with 3 samples.

Results

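The sites described here are weaker ZLD binding sites that were called as bound at every stage examined. They were found by joining the midpoints of the deposited peak intervals of all 3 stages within 150 bp, and by keeping sites on the chromosome arms 2L, 2R, 3L and 3R that held a peak of each of the 3 lists and whose highest peak had a deposited height under 500 in at least 1 list. The sites were thus chosen by the deposited peak heights and by presence in the lists. This gave 3718 sites of 16200 in the whole series, and of 13531 on the 4 arms. On these arms 4393 sites were in all 3 lists, and the 675 of them with heights at or above 500 at every stage are called the strong sites below. A further 3936 sites were in 2 lists and 5202 in a single list. Because the deposited heights chose the sites, every statement here about their height, and about coverage that follows the height, is a description and was not tested.

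Wild-type Oregon R embryos of Drosophila melanogaster were assayed for ZLD by ChIP-seq, with an anti-ZLD antibody that does not recognise the DNA-binding zinc fingers. Embryos were hand sorted by morphology into pools of mitotic cycles 8-9, cycles 13-14 and late cycle 14. The names cycle 8 and cycle 13 are used below for the earlier pools, 3 values without a stage stand in stage order, and each pool still held embryos of adjacent cycles. No genotype or treatment differed between the pools, and 3.7, 6.6 and 6 µg of chromatin went into the immunoprecipitations in stage order. There was 1 library per stage, so no difference between stages has a replicate check, and stage cannot be told apart from library.

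ZLD, or Zelda, is a maternally supplied zinc-finger transcription factor that binds the CAGGTAG element and related TAGteam sequences. It occupies promoters and enhancers before the zygotic genome is broadly transcribed, and embryos without it fail to activate many early patterning genes. The sequence under the sites was not analysed here.

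The libraries held 13496488 mapped reads at cycle 8, 18870755 at cycle 13, then 17481411 in late cycle 14. On the 4 arms, the distinct combinations of start position and strand came to 23.3%, 49.8% and 40.1% of the reads, so the cycle 8 library held the largest share of copies. Values below are coverage, the number of reads extended to 150 bp that lie over the centre of a site, scaled to 10000000 reads per library. The median coverage of the arms was 4.446, 4.239 and 4.004 in stage order. Intervals are exact at 95% and cover counting error only, and copies make them too narrow.

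The weaker sites held 11.2% of all reads at cycle 8, 16.2% at cycle 13, then 16.6% in late cycle 14. Their coverage had a median of 164.5 at cycle 8 (160 to 169.7), 245.9 at cycle 13 (237.9 to 255.4), then 193.1 in late cycle 14 (183.6 to 201.9). The lowest and highest sites had 15.56 and 4060 at cycle 8, 47.16 and 2442 at cycle 13, then 18.88 and 3218 in late cycle 14. A median site was read 222, 464 and 337.5 times. At the strong sites the medians were 1268, 1828 and 1899. The weaker and strong sites were both chosen by height, which coverage follows, so the lower medians of the weaker sites were built in. Of the weaker sites, 1042 had a height at or above 500 at some stage. Single sites among these reached far higher coverage at such a stage.

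The deposited heights followed the same order, with medians of 152.6 at cycle 8, 226.6 at cycle 13, then 178.5 in late cycle 14. Nearest to the bound on its inner side was the intergenic site at 18998002 on 2R, with heights of 498.4 at cycle 8, 719.6 at cycle 13, then 530.4 in late cycle 14. The next were a site at 788943 on 3L with 498.2 at late cycle 14 and the promoter site of CG34360 at 5700260 on 3R with 498 at cycle 8. Just outside stood a coding site at 16624502 on 3L with 500.2 at cycle 8, a coding site at 284050 on 2L with 500.6 at late cycle 14, and the promoter site of pnr, which encodes a GATA factor, at 11860036 on 3R with 502.8 at cycle 8. The bound thus passed between sites of nearly equal height.

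By stage, the heights fell into 6 patterns. Most sites, 2676 of 3718, were under 500 at every stage. A further 546 were under 500 at cycle 8 only and 173 were at or above it at late cycle 14 only, and these are called the gaining patterns. In the other direction, 144 were at or above 500 at cycle 8 only and 117 were under it at late cycle 14 only, the losing patterns. The remaining 62 were at or above 500 at cycle 13 only.

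Sites under 500 at every stage had a median coverage of 136.3 at cycle 8, 184.9 at cycle 13, then 140.7 in late cycle 14. Sites under 500 at cycle 8 only had 281.2, 815.5 and 1091 at these stages. Sites at or above 500 at late cycle 14 only had 133.4, 441.4 and 644.7. In both of these gaining patterns most of the difference was already present at cycle 13.

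Sites at or above 500 at cycle 8 only had medians of 689.1 at cycle 8, 375.2 at cycle 13, then 119.3 in late cycle 14. Sites under 500 at late cycle 14 only had 958, 676.7 and 307.8. At these losing sites the larger step came after cycle 13, where late cycle 14 over cycle 13 had a median log2 value of -1.401 and -1.231 in these patterns, beside -1.023 and -0.415 for cycle 13 over cycle 8. At the gaining sites the larger step came before it, with medians of 1.672 and 1.671 for cycle 13 over cycle 8, beside 0.401 and 0.643 for late cycle 14 over cycle 13. The grouping itself fixes the step in which the height crossed 500. For sites under 500 at cycle 8 only, and for those under 500 at late cycle 14 only, that is the larger step. In the other gaining and losing patterns it is the smaller step. The medians therefore describe the groups, and timing was not tested.

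**Figure D1:**
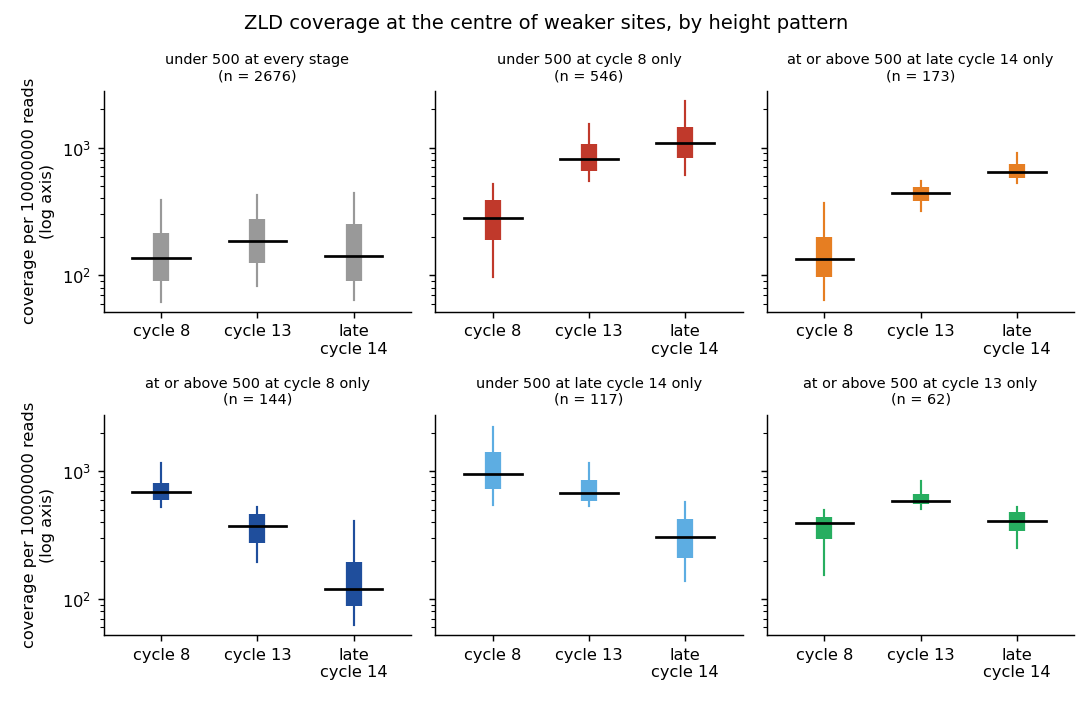
ZLD coverage (log axis, per 10000000 reads) at the centre of the weaker sites at the 3 stages, in 1 panel per height pattern. Black lines are medians, thick bars the quartiles and thin lines the 5th to 95th percentiles over sites. Sites under 500 at cycle 8 only had medians of 281.2, 815.5 and 1091, while sites at or above 500 at cycle 8 only had 689.1, 375.2 and 119.3.

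The mean profiles had a peak at the centre at every stage. Over all weaker sites the mean coverage at the centre was 242.9 at cycle 8, 352.8 at cycle 13, then 366.1 in late cycle 14, and at 400 bp to one side it was 35.98, 46.32 and 50.61. The mean profile of sites at or above 500 at cycle 8 only had a second maximum 960 bp to one side, with 141.5 at cycle 8, 100.5 at cycle 13, then 75.51 in late cycle 14, beside 64.18, 42.8 and 28.25 at 720 bp on that side. At 960 bp on the other side the cycle 8 mean was 45.34. This is a mean over 144 sites, and how many of them gave the second maximum was not examined. The ratio of the centre to the surroundings at 1000 to 2000 bp had a median of 15.6, 21.8 and 18.9. The median width of the peaks was 189, 187 and 187 bp, against 204, 198 and 196 bp at the strong sites.

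**Figure D2:**
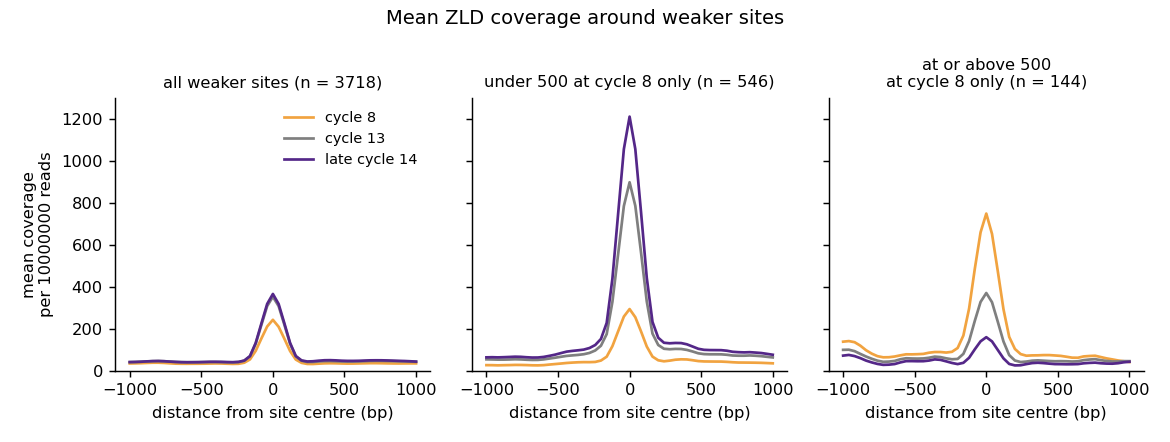
Mean coverage (per 10000000 reads) by distance in bp from the site centre, for all weaker sites and for 2 height patterns, with 1 line per stage. All weaker sites peak at 242.9, 352.8 and 366.1 in stage order. Sites under 500 at cycle 8 only peak at 294.1, 898.2 and 1211, and sites at or above 500 at cycle 8 only at 749, 370.6 and 160.1. The mean of these last sites also has the second maximum 960 bp to the left, at 141.5, 100.5 and 75.51. How many sites gave it was not examined.

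The position of highest coverage at each stage was looked for within 150 bp of the common centre. That window and the joining distance of the rule limit how far the positions can differ, so closeness is partly built in. The positions of all 3 stages lay within 25 bp at 62.3% of weaker sites (60.7 to 63.9) and at 82.2% of strong sites (79.1 to 85). For cycle 13 and late cycle 14 alone the share of weaker sites was 89.4%, while cycle 8 lay within 25 bp of cycle 13 at 74.4% and of late cycle 14 at 71.6%. In the weaker sites a cycle 8 peak held fewer distinct reads, with a median of 55 read starts over the centre, while the later stages had 203 and 149. The part of depth in these shares was not tested.

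In ratios of stages, read numbers under 3 were set to 3. A site is said to gain where its late cycle 14 coverage was 2 or more times its cycle 8 coverage, and to lose where the reverse held. By these sizes 1265 weaker sites gained, 34.0% of them (32.5 to 35.6), and 684 lost, or 18.4% (17.2 to 19.7). Over all 13531 sites of the 4 arms these shares were 34.1% and 39.8%, and the share of gaining sites is thus near the background. The rule admits only sites with a called peak at every stage, so nothing is read from the difference in the share of losing sites. The log2 ratio of late cycle 14 over cycle 8, called the log2 ratio below, had a median of 0.310 (0.238 to 0.374), beside 0.432 at the strong sites and -0.204 over all sites. Scaling by reads outside sites in place of all reads adds 0.208 to every one of these ratios.

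Cycle 13 was higher than cycle 8 by 2-fold or more at 1214 weaker sites, or 32.7%, and lower at 176, or 4.73%, with a background of 32.1% and 26.3%. From cycle 13 to late cycle 14 few sites gained. Late cycle 14 was higher than cycle 13 by 2-fold or more at 26 sites, or 0.699%, and lower at 485, or 13.0%, with a background of 3.88% and 25.6%. Among the strong sites 184 of 675 gained and 42 lost between cycle 8 and late cycle 14.

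These numbers depend on how copies are counted. With 1 read per position and strand, 733 weaker sites gained and 499 lost. That count cannot exceed 300 at a site, and 228 weaker sites were above 0.5 of the limit at cycle 8, while 2793 were at cycle 13 and 1842 were in late cycle 14. More sites were thus near the limit at the later stages than at cycle 8. The cycle 8 library also had the lowest share of distinct reads. The part of either in the smaller number of sites that gained was not tested.

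The cycle 13 value lay between the other stages at 64.1% of weaker sites (62.6 to 65.7), beside 69% of strong sites and 77.9% of all sites. It was the highest of the 3 at 1193 weaker sites, or 32.1% (30.6 to 33.6), at 165 strong sites, or 24.4% (21.2 to 27.9), and at 18.2% of all sites. Among sites under 500 at every stage this share was 39.2% (37.3 to 41.1). The excess at cycle 13 was small, since only 9 weaker sites, or 0.242%, were 2-fold or more above both other stages, beside 0.377% of all sites. Cycle 13 was the lowest stage at 140 sites, or 3.77%, near the 3.9% of all sites.

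The range over the 3 stages, the highest minus the lowest log2 value, had a median of 1.169 at the weaker sites (1.136 to 1.198), beside 0.740 at the strong sites and 1.920 over all sites. At 530 weaker sites, 14.3%, it was under 0.5, beside 31.9% of strong sites and 7.11% of all sites.

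**Figure D3:**
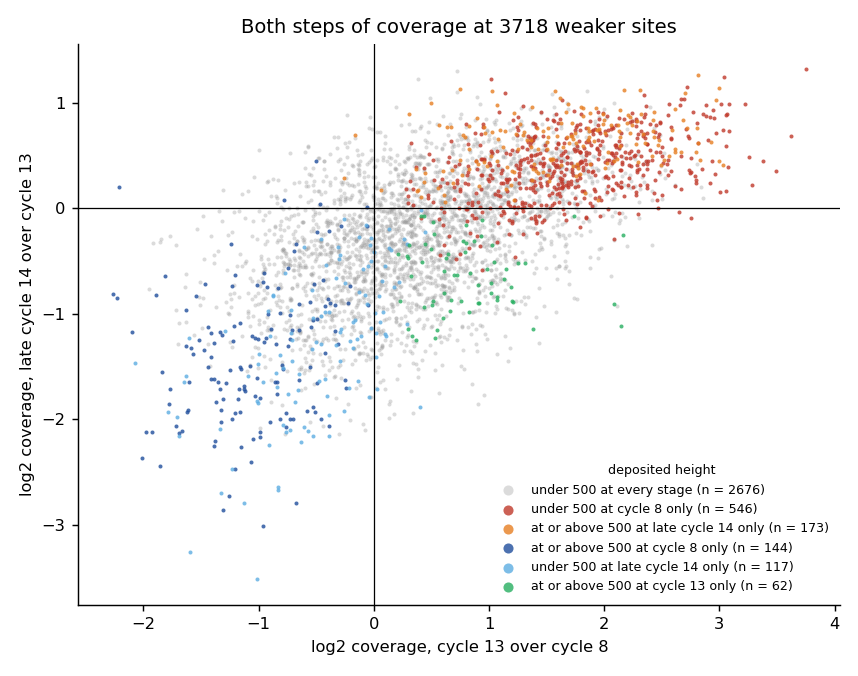
Each point is 1 of the 3718 weaker sites, with the log2 coverage of cycle 13 over cycle 8 across and of late cycle 14 over cycle 13 upwards, coloured by height pattern. The lower right field holds the 1193 sites that were highest at cycle 13, and the sparse upper left field the 140 sites lowest at cycle 13.

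The largest rise was at an intronic site whose nearest gene is InR, the insulin receptor, at 17437752 on 3R (peak intervals 17437431 to 17437930). It had a coverage of 45.94 at cycle 8 (35.22 to 58.89), 617.9 at cycle 13, then 1536 in late cycle 14 (1479 to 1596), a log2 ratio of 5.06 (4.70 to 5.45). The next was an intronic site of kis, which encodes a chromodomain helicase, at 222480 on 2L, with 59.27, 731.3 and 1171 and a log2 ratio of 4.30. An intronic site nearest E2f, which encodes a cell-cycle transcription factor, at 17467560 on 3R had 87.43, 721.2 and 1709 and a log2 ratio of 4.29. All 3 sites were below the median of the weaker sites at cycle 8 and above 1000 in late cycle 14.

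The largest fall was at a site labelled promoter, nearest the start of Teh4, at 4177527 on 3L (4177361 to 4177690). Its coverage was 2118 at cycle 8 (2041 to 2197), 701.1 at cycle 13, then 73.22 in late cycle 14 (61.09 to 87.06), a log2 ratio of -4.85. A site in the coding sequence nearest CG5707, at 2190244 on 3L, had 4060, 2013 and 175.6 and a log2 ratio of -4.53. A coding site inside CG4221, and nearest the start of CG5478, at 11756462 on 3R, had 1250, 310.5 and 60.06 and a log2 ratio of -4.38. The coding site nearest CG5707 was the highest of all weaker sites at cycle 8.

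The most even sites were taken from those whose mean log2 coverage over the stages was at or above the median of this mean over the weaker sites. A site at 1410077 on 2L inside lea, which encodes the axon guidance receptor Robo2, had 228.2 at cycle 8 (203.4 to 255.2), 223.6 at cycle 13, then 222.5 in late cycle 14 (201 to 245.8). Its log2 ratio was -0.036 over the centre (-0.256 to 0.184) and 0.225 over 300 bp. The promoter site of Df31, which encodes a chromatin decondensation factor, at 21630227 on 2L had 709.1, 681.5 and 685.3. Its log2 ratio was -0.049 with all reads and -0.907 with 1 read per position and strand, so its evenness depends on how copies are counted. A site at 695837 on 3L within 5000 bp of CG13894 had 306.7, 293 and 301.5.

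Of the sites highest at cycle 13 relative to both other stages, the first was in the coding sequence nearest puc, which encodes a phosphatase of the JNK pathway, at 3936920 on 3R. It had 191.2 at cycle 8, 518.3 at cycle 13, then 213.4 in late cycle 14. Sites at 1481209 on 3R and 17464472 on 2R had 129.7, 293.6 and 117.3, and 104.5, 233.7 and 85.81. The lowest at cycle 13 were at 12565670, 9005675 and 9697629 on 3L. The site at 9005675, within 5000 bp of the T-box gene Doc2, had 88.91, 59.88 and 89.24.

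The highest mean heights belonged to an intronic site nearest retn, which encodes an ARID-domain DNA-binding protein, at 19533308 on 2R, and to the promoter site of prd described below. The retn site had heights of 464.2 at cycle 8, 2693 at cycle 13, then 2639 in late cycle 14, and coverage of 643.9, 1285 and 1540 at its common centre. Its log2 ratio was 1.258 with all reads and -0.364 with 1 read per position and strand. The lowest mean heights were 54.15, 24.56 and 34.99 at a site at 4281825 on 2L within 5000 bp of tutl, and 111.9, 39.38 and 15.69 at a site at 17330154 on 3L. At the tutl site coverage was 136.3, 317.4 and 366.1, far above the heights. At such sites the height, a fitted value that divides coverage among neighbouring peaks, and the coverage at 1 common centre do not measure the same quantity, and their directions differed at the tutl site.

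Location was not used by the rule. Labels (promoter, 5′ and 3′ UTR, coding, intronic, intergenic) could be matched within 100 bp for 1038 of the 1042 weaker sites with a height at or above 500 at some stage, and for only 202 of the 2676 under 500 at every stage, whose locations are therefore not described. Coding sequence held 46 of 143 labelled sites that were at or above 500 at cycle 8 only, or 32.2% (24.6 to 40.5), and 39 of 116 sites under 500 at late cycle 14 only, or 33.6% (25.1 to 43). Of sites under 500 at cycle 8 only it held 33 of 544, or 6.07% (4.21 to 8.41), and of those at or above 500 at late cycle 14 only 8 of 173, or 4.62% (2.02 to 8.91). The intervals of the losing patterns do not overlap those of the gaining ones, and the strong sites stood between them with 91 of 672, or 13.5% (11 to 16.4). Of the sites at or above 500 at cycle 13 only, 20 of 62, or 32.3% (20.9 to 45.3), were coding, as in the losing patterns.

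Introns showed the opposite order. They held 44.5% (40.3 to 48.8) of sites under 500 at cycle 8 only, 23.1% (16.4 to 30.9) of those at or above 500 at cycle 8 only and 34.8% (31.2 to 38.6) of strong sites. Promoters held 14.5%, 11.9% and 19.8%, with intervals that overlapped between the weaker patterns. Intergenic shares ranged from 31.1% to 34.7% among the 5 patterns and did not differ beyond their intervals.

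**Figure D4:**
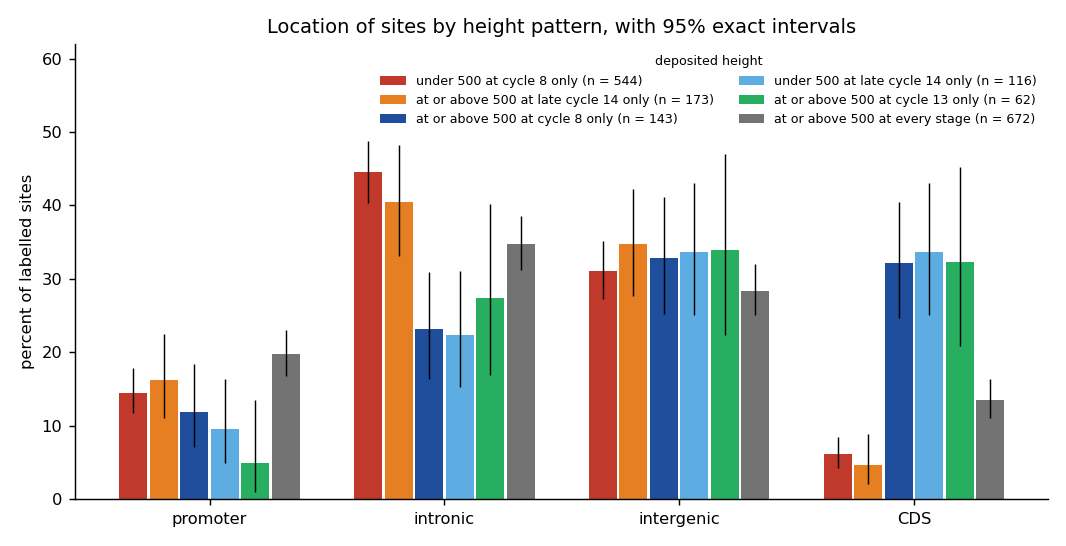
Percent of labelled sites in promoters, introns, intergenic sequence and coding sequence (CDS), with 1 bar per height pattern and exact 95% intervals; strong sites are the rightmost bar of each set. Coding sequence holds 6.07% and 4.62% of the gaining patterns and 32.2% and 33.6% of the losing ones.

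The same contrast seen from the label, over the 1038 labelled sites, gave a median log2 ratio of -1.210 for coding sites (n = 146), of which 34 gained and 76 lost, or 23.3% and 52.1%. Of all 1038 labelled sites 652 gained and 214 lost, or 62.8% and 20.6%, with a median of 1.632. The median was 2.073 for promoter sites (n = 138), where 102 gained and 23 lost, 1.803 for intronic sites (n = 388), where 288 gained and 44 lost, and 1.673 for intergenic sites (n = 336), where 202 gained and 71 lost. Coding sites had median coverages of 593.5 at cycle 8, 571 at cycle 13, then 304.6 in late cycle 14, and intronic sites 284.1, 670.6 and 812.3. With 1 read per position and strand the medians were -0.974 for coding, 0.334 for promoter, 0.457 for intronic and 0.235 for intergenic sites, so the coding median moved little and the others came near 0. These sites were at or above 500 at some stage and under it at another, so a change between stages is built into them. More of them were in the gaining than in the losing patterns. The medians by label thus largely restate the shares by pattern above. They hold for these sites and not for the sites under 500 throughout.

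The weaker sites were spread over all 4 arms, with 844 on 2L, 893 on 2R, 874 on 3L and 1107 on 3R, or 36.7, 42.2, 35.6 and 39.7 per Mb. Another ZLD site was within 2000 bp of 64.8% of weaker sites (63.3 to 66.4) and of 83.3% of strong sites (80.2 to 86). Median distances were 1235 and 858 bp. Among sites called in a single list, the share was 48.7% (47.1 to 50.4) where that list was cycle 8. It was 62.2% (57.8 to 66.5) where the list was cycle 13, and 63.8% (60.9 to 66.5) where it was late cycle 14. Nearness to another site was thus not particular to the weaker sites. The share was 78.9% (75.3 to 82.3) for sites under 500 at cycle 8 only and 60.5% (58.6 to 62.4) for those under 500 at every stage. A strong site lay within 5000 bp of 19.2% of weaker sites.

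The direction of neighbouring weaker sites was compared in 3 classes of distance. Of 659 adjacent pairs 300 to 2000 bp apart, 230 had both sites gaining or losing, and in 200 of these, or 87%, both moved the same way. At 2000 to 10000 bp this held for 245 of 337 pairs (72.7%) and at 10000 to 50000 bp for 237 of 367 (64.6%). The Spearman coefficients of the log2 ratios over all pairs of these classes were 0.441 (n = 659), 0.197 (n = 1044) and 0.146 (n = 1427). Pairs share the same 3 libraries and a site can be in 2 pairs, so these are descriptions. More weaker sites gained, 1265, than lost, 684, which by itself raises the shares of the same direction.

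Of 967 windows of 100000 bp, 869 held a weaker site. The fullest, on 3R from 2900001 to 3000000, held 21. The next, on 3R from 12500001 to 12600000 and covering most of Ubx, held 19, of which 12 gained and 2 lost.

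The early patterning genes were examined as lists by role, counting weaker sites in the gene or within 5000 bp of it. The homeotic genes, which specify segment identity and act after the early patterning cascade, had 50 weaker sites at 8 genes. Of these 34 gained and 6 lost, beside 34.0% and 18.4% of all weaker sites, with a median log2 ratio of 1.478, beside 0.310 over all weaker sites. With 1 read per position and strand 19 gained and 1 lost, and over 300 bp 33 gained and 2 lost. Median coverages were 161.5 at cycle 8, 329.6 at cycle 13, then 428.2 in late cycle 14.

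At Antp, which specifies thoracic identity, all 14 sites found in the 3 lists were weaker sites, and 11 gained and none lost. Counting 1 read per position and strand, 7 gained and none lost. The intergenic site at 2719412 on 3R had 191.9 at cycle 8, 968.7 at cycle 13, then 1555 in late cycle 14. A pair of intronic sites at 2820356 and 2820833 had 88.17, 588.2 and 756.8, and 116.3, 555.9 and 780.8. An exception was the intronic site at 2742689, which was highest at cycle 13 with 458.6, 862.7 and 462.2.

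At Ubx, which specifies the third thoracic and first abdominal segments, 13 of 14 sites in all 3 lists were weaker sites. Of these 7 gained and 2 lost. The intronic sites at 12503898, 12545788 and 12555390 on 3R had 235.6, 1244 and 1824, then 176.3, 956 and 1579, and 200.8, 1040 and 1209. A site at 12519525 within the same gene went the other way, with 292.7, 180.7 and 129.9. Its log2 ratio was -1.172, and -0.908 over 300 bp. The other site that lost, at 12530048, had -1.026, and -0.917 over 300 bp. Over 300 bp 7 sites thus gained and none lost, and with 1 read per position and strand 2 gained and none lost.

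Abd-B, which specifies posterior abdominal segments, and lab, which acts in the head, had 3 weaker sites each, all of which gained. With 1 read per position and strand 2 gained at Abd-B and 3 at lab. The intronic site of Abd-B at 12762013 on 3R had 316.4 at cycle 8, 1494 at cycle 13, then 2647 in late cycle 14. At abd-A 5 of 7 weaker sites gained and 2 lost, of which 1 still lost over 300 bp. Under 1 read per position and strand 3 of the 7 gained and 1 lost. At Scr 4 of 6 gained and none lost, while 2 gained with 1 read per position and strand. At pb, which acts in the mouthparts, neither of 2 weaker sites gained. The site that lost, at 2557095 on 3R, had a log2 ratio of -1.077, and -0.967 over 300 bp.

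The segment polarity genes, which maintain the borders of the segments, had 11 weaker sites at 3 of the 4 genes with a position. Of these sites 9 gained and none lost, beside 34% and 18.4% of all weaker sites, and 6 of the 9 were at wg. The median log2 ratio was 2.002, and 0.990 with 1 read per position and strand, under which 4 gained and none lost. At wg, which encodes a Wnt ligand, 6 of 7 sites were weaker sites, none was strong and all 6 gained. Of these 6, 3 gained with 1 read per position and strand. The intronic site at 7312173 on 2L had 269.7 (242.7 to 298.9) at cycle 8, 737.6 at cycle 13, then 1385 (1331 to 1442) in late cycle 14. The intronic site at 7310397 had 183.8, 814.5 and 1229. The lowest of the 6, at 7306903, had 71.13, 260.7 and 284.9. At hh, which encodes the Hedgehog ligand, both weaker sites gained, with log2 ratios of 1.051 and 1.054. Over 300 bp 1 of them gained, and neither did with 1 read per position and strand. At the homeodomain gene inv 1 of 3 gained. No weaker site was found at en, its neighbour and paralog.

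The pair-rule genes, which set up the segments in alternating stripes, had 22 weaker sites at 8 genes, of which 6 gained and 6 lost, beside 34.0% and 18.4% of all weaker sites. Over 300 bp 4 gained and 5 lost, with 1 read per position and strand 2 gained and 5 lost, and scaled by reads outside sites 7 gained and 5 lost. The median log2 ratio was 0.228, which was negative over 300 bp and with 1 read per position and strand. At prd, which encodes a Pax homeodomain factor, the promoter site at 12085903 on 2L had 518.7 (480.9 to 558.5) at cycle 8, 2442 at cycle 13, then 3218 (3135 to 3303) in late cycle 14. A site at 12085146 inside the gene had 54.83, 289.3 and 562.3, and an intergenic site at 12087781 had 397.9, 1024 and 1451. At the promoter site the log2 ratio was 2.63 with all reads and -0.15 with 1 read per position and strand, a count near its limit there.

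Losses among pair-rule genes were at opa, h, slp1 and eve. At opa, which encodes a Zic-type zinc-finger factor, 3 of 5 weaker sites lost, and the intergenic site at 698035 on 3R had 643.9 (601.8 to 688.1) at cycle 8, 208.3 at cycle 13, then 84.09 (71.05 to 98.83) in late cycle 14. The loss at 678358, with a log2 ratio of -1.118, was under 2-fold over 300 bp, at -0.355, and with 1 read per position and strand, at -0.918. An intronic site of the same gene at 683842 gained, with 151.9, 334.4 and 555.4. At h, which encodes a bHLH repressor, the intergenic site at 8665425 on 3L had 625.3, 314.8 and 90.38. An intergenic site of the forkhead gene slp1 at 3824797 on 2L had 558.7, 327 and 227.1. Its log2 ratio was -1.299, and -0.783 with 1 read per position and strand.

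The gap genes, the first zygotic regulators of the anterior-posterior axis, had 13 weaker sites. Of these 3 gained and 2 lost, beside 34% and 18.4% of all weaker sites. With 1 read per position and strand 2 gained and 2 lost. The median log2 ratio was 0.030 and its sign changed with the way of counting. At kni, which encodes a nuclear receptor-like factor, the intergenic site at 20689769 on 3L had 1132 (1076 to 1190) at cycle 8, 585.6 at cycle 13, then 381 (352.6 to 411) in late cycle 14, while the other 3 sites changed less than 2-fold. At tll, which encodes a nuclear receptor of the embryo's ends, opposite changes flanked the gene. The site at 26676853 on 3R had 500.9, 138.8 and 111, and the site at 26681256 had 88.91, 216.7 and 374.7.

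The dorsal-ventral genes had 15 weaker sites at the 6 genes with a position. Of these sites 7 gained and 3 lost, beside 34% and 18.4% of all weaker sites. The median log2 ratio was 0.990. Of the same sites 3 gained and 3 lost with 1 read per position and strand, and the median was 0.011. At sna, which encodes a mesodermal repressor, the intergenic site at 15481187 on 2L had 841.7 (793.5 to 892.1) at cycle 8, 179.1 at cycle 13, then 98.96 (84.76 to 114.9) in late cycle 14. About 1 kb away the site at 15482209 had 133.4, 407.5 and 338.6, a log2 ratio of 1.344, which was 0.844 over 300 bp. At dpp, which encodes a BMP ligand, all 3 weaker sites gained, and the promoter site at 2451199 on 2L had 125.2, 479.6 and 798.6. With 1 read per position and strand 1 of the 3 gained, and the log2 ratio of the site at 2453630 was -0.003, beside 1.216 with all reads. At twi, which encodes a bHLH activator of mesoderm, the promoter site at 18933716 on 2R had 458.6, 1179 and 1104. Its log2 ratio was 1.267 with all reads and -0.131 with 1 read per position and strand. The intergenic site at 18931561 had 540.1, 257 and 91.53.

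At lea, CG14014, CG18269 and HmgZ there were 7 weaker sites, of which none gained and 3 lost, beside 34% and 18.4% of all weaker sites. Scaled by reads outside sites 3 gained and 3 lost, and with 1 read per position and strand 1 gained and 3 lost. The site at 5551926 on 2L, labelled promoter, lay 119 bp from CG18269, its nearest gene, and 1091 bp from CG14014. It had 3451 (3352 to 3551) at cycle 8, 1716 at cycle 13, then 475.9 (444.1 to 509.4) in late cycle 14. At lea the 6 weaker sites included the most even site named above and sites at 1394977 and 1408158 with 257.8, 75.78 and 62.92, and 280.8, 355.6 and 92.67, both of which lost. The other 3, at 1411389, 1413310 and 1414908, were higher at late cycle 14 by less than 2-fold, with 1064, 1600 and 1941, then 56.31, 139.9 and 99.53, and 121.5, 222.6 and 240.3. With 1 read per position and strand their log2 ratios were -0.742, 1.320 and 0.586. The site at 1411389 had heights of 353.7, 801.3 and 1180, far below its coverage. The median log2 ratio of the 6 was 0.393. No weaker site was found at HmgZ.

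**Figure D5:**
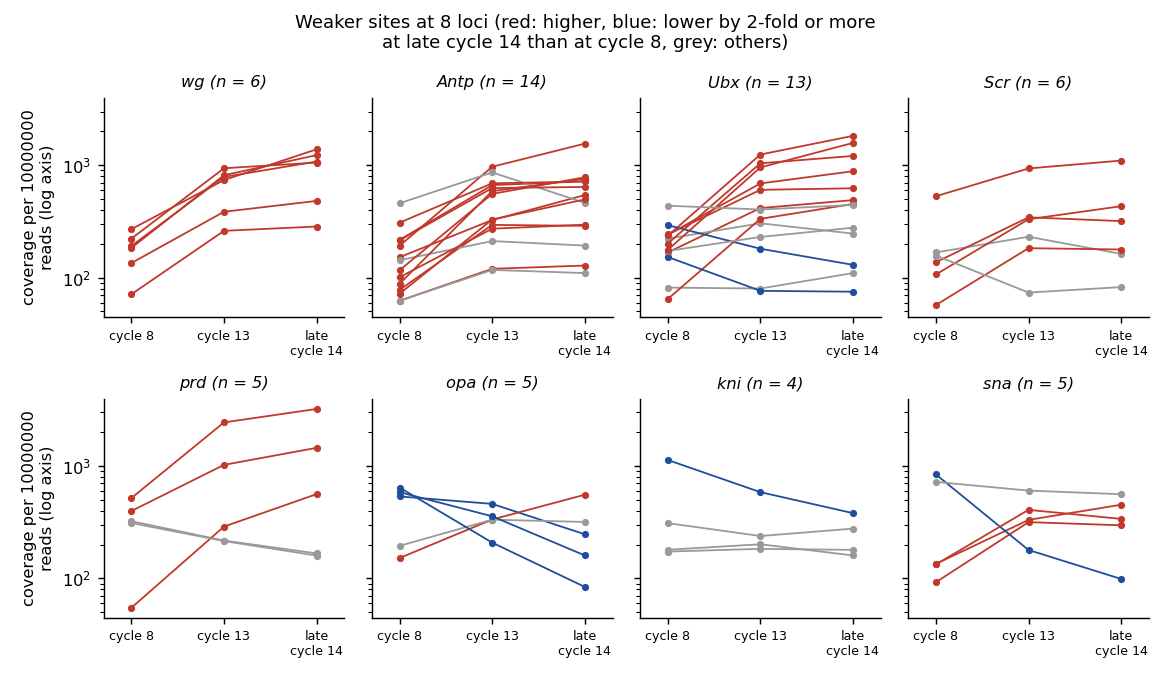
Coverage (log axis, per 10000000 reads) of the weaker sites in or within 5000 bp of 8 genes at the 3 stages, with 1 line per site. Red marks sites that gained and blue sites that lost, by 2-fold or more between cycle 8 and late cycle 14, with all reads counted. All 6 sites at wg and 11 of 14 at Antp are red, opa has 3 blue sites of 5, and Ubx has 7 red and 2 blue.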

How the data were processed

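Libraries of DNA immunoprecipitated with anti-ZLD were sequenced for 3 stages, 1 library each. The authors mapped reads to dm3 with Bowtie 0.12.5, allowing at most 2 mismatches and stating that tags placed uniquely were retained. They lengthened reads to 150 bp, scaled each library to 10000000 reads and called peaks per library with Grizzly Peak, which fits overlapping peaks of a learned shape. In the deposited peak lists an interval comes with a height, which is a signal in units of scaled coverage. Every mapped read of 25 bp has its own line in the deposited read files, whose score column was not used.

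Coverage was recomputed from all reads, copies included, with numpy 2.4.6, scipy 1.17.1 and pandas 2.3.3 under Python 3.11.15. Sites were centred where the pooled scaled coverage was highest between the outermost joined midpoints, with 75 bp on either side. Ratios used read numbers of at least 3. Shares carry exact Clopper-Pearson intervals, coverage exact Poisson intervals and medians order-statistic intervals, at 95%. No test between stages was possible with 1 library per stage. Counting and joining functions were tested on simulated data.

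The sites and gene lists were chosen with earlier results of these data known. Named sites are the 3 largest rises and the 3 largest falls with cycle 13 between, the 3 most even, the 2 highest and 2 lowest mean heights, those nearest the bound of 500, the 3 highest and 3 lowest at cycle 13, and examples from sites within 5000 bp of the listed genes, picked after their values were seen. Location labels and the positions of 1459 genes on dm3 were read from the parts of the study's tables used here. Positions of nkd, ths and pyr, and motifs, whose analysis needs the dm3 sequence, were not analysed here.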

Additional observations from a re-analysis of the deposited data

How the results depend on the processing

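No paired analysis was possible because each stage had 1 library. The number of weaker sites, 3718, was 3600 and 3750 with joining distances of 100 and 200 bp, and 3552 and 3825 with bounds of 400 and 600. Counting 1 read per position and strand gave 733 sites that gained 2-fold or more, a median log2 ratio of 0.185 and a median range over the stages of 0.742. Scaling by reads outside sites gave a median log2 ratio of 0.518, a share of 60.6% with cycle 13 between the other stages and a range of 1.220. Subtracting the background gave a range of 1.203. Another site lay within 1000 bp of 42.3% and within 5000 bp of 85.4% of weaker sites. Reads over 300 bp, the deposited heights and, as an alternative added after seeing the data, the highest coverage of each stage within 150 bp moved none of these summary values beyond their intervals. Of 138 weaker sites near the listed genes or named by the rule, 89 were past 2-fold, of which 6 changed sign with 1 read per position and strand, with log2 ratios of -0.003 at dpp (2L 2453630), -0.148 at prd (2L 12085903), -0.131 at twi (2R 18933716), -0.364 at retn (2R 19533308), -0.167 at Scr (3R 2673826) and -0.183 at CG34360 (3R 5700260), and none did under the other 3 alternatives run on them. Of these 89, 39 came under 2-fold or changed sign with 1 read per position and strand, 10 over 300 bp, 5 scaled by reads outside sites and 1 by the highest coverage, and over all 138 sites the sign changed at 20, 8, 7 and 3. The cause was not tested. The planned share of sites with CAGGTAG and its alternatives were not run, because they need the dm3 sequence.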
